A study of Rattus norvegicus with 31 samples.

Results

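The same 9 rats gave a liver, a white adipose tissue (WAT) and a brown adipose tissue (BAT) array each, so that every gene could be followed from 1 tissue to another within an animal. The question here was which genes and functions were high together, or low together, in different tissues of the same rat once the difference between the diets had been taken out. The 27 arrays came from 31 in the series, and the other 4 were livers of an M-group without adipose arrays, which were not used. All animals were male Wistar rats, an outbred stock, 3 weeks old at the start of the study. They had chow for a week and then ate the diets freely for a week. The diets continued for 9 weeks after that, fed as given below, and food was removed 17 h before dissection. In the L-group (5 rats, numbered 1 to 5) carbohydrate and fat supplied 65% and 15% of the energy, and in the H-group (4 rats, numbered 12, 13, 15 and 16) 35% and 45%, with the H rats given the same energy as the L rats, which ate freely. Liver pieces were kept in RNAlater and both adipose tissues were frozen in liquid nitrogen. The adipose depots are not given in the sources used here.

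For each probe set, a group of probes that reads 1 transcript, the mean of the diet group was subtracted from the log2 value of each rat in each tissue, and these residuals were correlated between tissues over the 9 rats (Pearson r). A probe set was used for a pair of tissues if its values spanned more than 0.3 on the log2 scale in both. Of 31042 probe sets, 3008 met this for liver and WAT, 8980 for liver and BAT, 2848 for WAT and BAT, and 2393 for all 3 tissues. The rule used the size of the variation only, the difference between the diets included, and not whether the tissues varied together. Each tissue was summarized by the authors with a different method, so that levels were not compared between tissues. A slope between tissues also depends on these methods. In WAT 25734 probe sets and in BAT 10370 held 1 constant value, and such genes could not enter.

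Animals of an outbred stock carry different alleles, and a sequence difference under the probes or near the gene can raise or lower a signal in every tissue of the animal. Hormones and metabolites in the blood, among them glucocorticoids, insulin and interferons, reach liver and fat alike. Stress inside cells is answered by transcription programs of their own: HSF1 drives the cytosolic heat shock chaperones, ATF6 and XBP1 drive the chaperones of the endoplasmic reticulum (ER), and IRF factors drive the interferon-stimulated genes. Liver, WAT and BAT also make fatty acids, and all run a circadian clock.

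The tissue labels were borne out by their defining genes. Alb, the plasma albumin gene, had a log2 value of 14.3 in every liver, Adipoq, encoding adiponectin, 13.2 to 13.4 in WAT and 13.1 to 13.8 in BAT, and Ucp1, the uncoupling protein of brown fat, 14.4 to 14.9 in BAT. Alb was also read at 7.83 to 12.7 in WAT and 12.6 to 13.4 in BAT, whereas the liver enzyme gene Cps1 was at its constant low value of 6.07 in WAT and 2.29 in BAT. Skeletal muscle genes stood apart in the BAT of 2 H rats: Acta1, the actin of skeletal muscle, was 7.55 in rat 13 and 9.13 in rat 15 and 2.29 in the other 7. The mean level of the 17 muscle markers in BAT was 3.25 to 3.43 in L rats and 3.43 to 5.71 in H rats. In the correlations with BAT the counts without rat 13 and without rat 15 are therefore given beside the counts over 9 rats. A bulk tissue sample cannot tell more cells of a type from more RNA per cell.

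In all 3 pairs of tissues, correlations were shifted above 0. The median r was 0.234 between liver and WAT, 0.101 between liver and BAT and 0.223 between WAT and BAT, and 67.85%, 58.76% and 66.89% of the probe sets had an r above 0. Correlations over 0.8 were held by 283, 281 and 220 probe sets, and correlations under -0.8 by 16, 56 and 10. The test was the regression of 1 tissue's residuals on the other's in limma, where every probe set borrows information on its variance from the rest. A call needed an adjusted p under 0.05, by Benjamini and Hochberg, among the probe sets of the pair. Positive covariation passed for 137 of 3008 probe sets between liver and WAT (4.55%), for 34 of 8980 between liver and BAT (0.379%) and for 100 of 2848 between WAT and BAT (3.51%). Negative covariation passed for 2 (0.0665%), 0 (0%) and 1 (0.0351%). The pairs were tested on different probe sets, so their shares and medians do not show whether covariation differed between pairs. A range over 0.3 was met by 20114 probe sets in the liver, 3697 in WAT and 12623 in BAT. With a range over 0.6 required in both tissues, the median r was 0.4015, 0.2097 and 0.3346. Between liver and BAT, 795 probe sets had an unadjusted limma p under 0.05, and 176 of these had a negative slope.

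**Figure D1:**
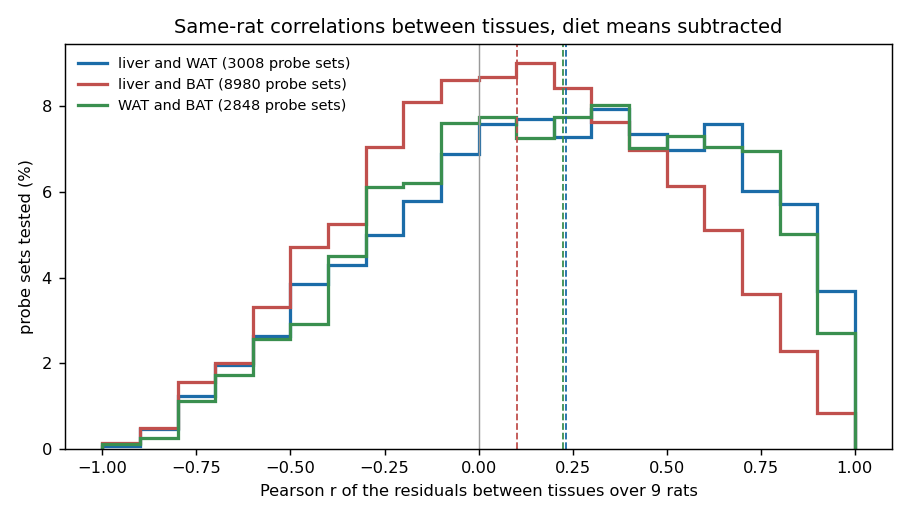
Distribution of the Pearson r of the residuals over 9 rats, for every probe set tested in a pair of tissues (x axis, r; y axis, percent of probe sets). For each pair, drawn as a line of its own, the bulk lies to the right of 0, with medians of 0.234, 0.101 and 0.223, and more probe sets lie over 0.8 than under -0.8.

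The counts without rat 13 were 15 for liver and BAT and 55 for WAT and BAT, and without rat 15 they were 11 and 63. Liver and WAT, which do not involve these BAT arrays, gave 93 without rat 13 and 98 without rat 15. With the first principal component of each tissue (the main direction in which its arrays differ) removed, the counts were 37, 19 and 31. In simulated data with the same number of probe sets, a true r of 0.99 passed for 72%, 40% and 80% of changed probe sets and an r of 0.9 for 36%, 12% and 26%, so a gene that did not pass may well covary. These simulated probe sets were drawn independently of each other, which the measured ones were not.

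A rat effect shared by the 3 tissues, an F test of the rats in limma over all 27 arrays, passed for 310 of 2393 probe sets (13%). This test assumes the same residual spread in each tissue, although the tissues were summarized by different methods. Of the 137 probe sets called between liver and WAT, 55 (40.1%) were also among the 100 called between WAT and BAT (55.0%). Of the 34 called between liver and BAT, 27 (79.4%) were among those of liver and WAT (19.7%), and 26 (76.5%) among those of WAT and BAT (26%). These lists share the arrays of 1 tissue, so the overlaps are a description. All 26 probe sets called in every pair also passed the F test, which uses the same arrays and so adds no separate support. These 26 included 15 genes with 1 symbol: Pxmp4, Plaat3, Nfkbia, RT1-CE10, Zeb2, Nom1, Tgoln2, Mrpl52, Lmo4, RT1-T24-3, Mga, Mx2, Phkg2, Hsph1 and Eeig2.

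Genes were also grouped in 31 lists of pathways and cell type markers. Within a list, a gene was read by its brightest probe set, and the list was described by how many of its genes had an r above 0, by their median r and by how many passed the limma test over all probe sets. Lists are set beside the medians over all probe sets, without a test of the list. A total of 248 correlations of 163 genes were examined one by one, of which 89 passed the limma test. Each single correlation was also given an exact two-sided permutation p over all orders of the rats within diets, whose smallest possible value is 0.000347, with no further adjustment. Most of these genes were picked by their limma p or their r in the same residuals. The exact p printed for r and rho is therefore a description and adds no separate support. For the genes given rat by rat, r is also given without the 2 rats farthest from the median in the tissue named first.

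**Figure D2:**
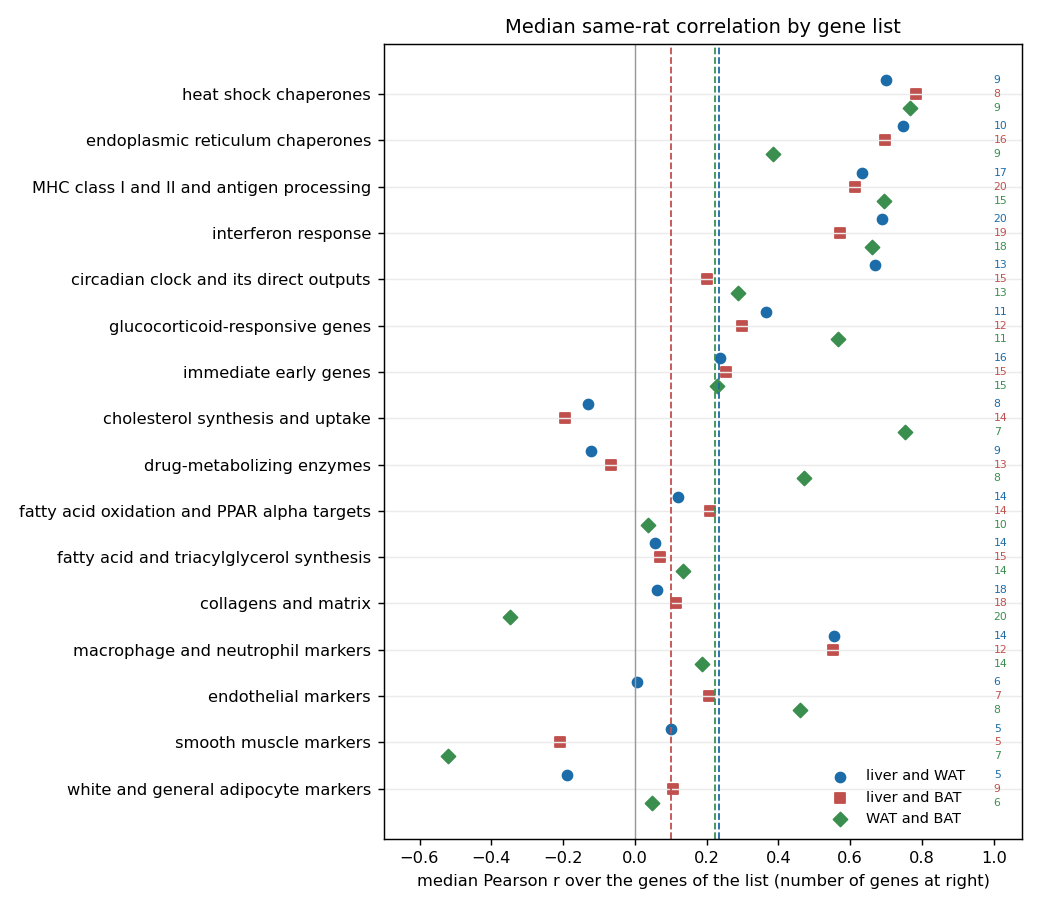
Median Pearson r over the genes of 16 lists (x axis) for liver and WAT (circles), liver and BAT (squares) and WAT and BAT (diamonds), with the number of genes tested at the right and the median over all probe sets of each pair as a dashed line. Heat shock chaperones, MHC and interferon genes lie over 0.57 in every pair, and fatty acid synthesis lies at 0.0551 to 0.133.

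Heat shock chaperones, which refold proteins in the cytosol, were positively correlated between the tissues of a rat. All genes tested had a positive r in every pair: 9 of 9 between liver and WAT with a median r of 0.7, 8 of 8 between liver and BAT with 0.783, and 9 of 9 between WAT and BAT with 0.768. By the brightest probe set 2, 0 and 3 of them passed the test. Over all probe sets of the 3 pairs 4.55%, 0.379% and 3.51% passed, and 67.85%, 58.76% and 66.89% had an r above 0. The following stretches lie directly before the transcription start of 3 members (RefSeq, build GRCr8), with matches to the heat shock element (GAANNTTC) in capitals, because this is the element HSF1 binds.
Hsph1, chr12:10427168-10427367 (plus strand): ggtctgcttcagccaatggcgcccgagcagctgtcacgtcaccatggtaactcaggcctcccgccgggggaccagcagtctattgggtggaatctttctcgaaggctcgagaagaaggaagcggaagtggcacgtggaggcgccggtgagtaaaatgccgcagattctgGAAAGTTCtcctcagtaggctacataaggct
Dnaja1, chr5:60638204-60638403 (plus strand): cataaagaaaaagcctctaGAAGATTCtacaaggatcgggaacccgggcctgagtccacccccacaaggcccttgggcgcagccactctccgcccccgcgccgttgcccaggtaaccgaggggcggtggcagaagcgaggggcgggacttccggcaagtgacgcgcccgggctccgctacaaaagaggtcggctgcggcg
Hspb1, chr12:26432302-26432501 (minus strand): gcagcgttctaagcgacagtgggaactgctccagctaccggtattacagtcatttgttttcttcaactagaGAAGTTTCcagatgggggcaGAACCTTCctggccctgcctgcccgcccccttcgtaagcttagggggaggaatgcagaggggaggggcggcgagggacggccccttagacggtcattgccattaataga
Matches on both strands were counted in the 250 bases before the start. They were present for 6 of 9 heat shock genes (66.7%) and for 7.02% of all 27457 promoters, and the match nearest the start of Hsph1 began 31 bases before it. A match is a description of the letters and does not show that a factor was bound. Hspa1a, called between liver and WAT and between WAT and BAT, had no match. The matches were not compared with the correlations.

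Hsph1, an HSP110 nucleotide exchange factor for HSP70, was called in all 3 pairs. Its log2 values in the liver were 8.01, 8.83, 8.16, 7.63 and 7.76 in L rats 1 to 5 and 8.44, 8.23, 7.92 and 8.05 in H rats 12, 13, 15 and 16. In WAT of the same rats, in the same order, they were 7.80, 10.37, 8.48, 7.15 and 7.32, then 8.89, 8.17, 7.46 and 7.60. In BAT they were 7.32, 9.26, 7.53, 7.14 and 7.37, then 8.56, 7.58, 7.80 and 7.58. Rat 2 was highest among the L rats and rat 12 among the H rats in every tissue, rat 4 was lowest of the L rats in every tissue, and the 2 diets overlapped. The residuals of liver and WAT correlated with r = 0.992 (exact p = 0.000347), with Spearman's rho of 1.0 (exact p = 0.000347) and r = 0.982 without the 2 farthest rats, and the limma adjusted p was 3.34e-05. This call was kept in 9 of 9 fits that left out 1 rat. Liver and BAT gave r = 0.907 (exact p = 0.0104, rho 0.753 with exact p = 0.0312, limma adjusted p = 0.0451), which fell to 0.633 without the 2 farthest rats and was called in 2 of 9 fits without 1 rat. WAT and BAT gave r = 0.933 (exact p = 0.00972, rho 0.753 with exact p = 0.0312, limma adjusted p = 0.00873), which fell to 0.485 without the 2 farthest rats, so that it rested largely on rats 2 and 12. The change in WAT per log2 unit in the liver was 2.78 units, a slope that also depends on the different summary methods of these tissues. These values are of the Hsph1 probe set with the smallest p. Its brightest probe set, the one the list reads, had r = 0.964 between liver and WAT (limma adjusted p = 0.000666), 0.884 between liver and BAT (0.0716, not called) and 0.872 between WAT and BAT (0.0347). Without the 2 farthest rats these were 0.869, 0.619 and 0.259.

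Hspa1a, an inducible HSP70, showed the widest spread of the chaperones shown. In the liver it was 7.14, 8.38, 6.96, 5.87 and 5.86 in the L rats and 7.83, 7.80, 6.35 and 6.50 in the H rats. In WAT it was 10.34, 13.47, 10.01, 8.62 and 8.98, then 10.43, 9.94, 8.92 and 9.78. In BAT it was 11.07, 13.36, 10.07, 10.60 and 10.62, then 12.29, 11.16, 10.91 and 10.23. Rats 2 and 12 were again the highest of their diets in all 3 tissues. Between liver and WAT r was 0.9 (exact p = 0.000694, rho 0.967 with exact p = 0.00104, limma adjusted p = 0.0103, 0.866 without the 2 farthest rats). Between WAT and BAT r was 0.834 (exact p = 0.0382, rho 0.75 with exact p = 0.0312, limma adjusted p = 0.0473), which fell to 0.438 without the 2 farthest rats. Between liver and BAT r was 0.79 and the limma adjusted p 0.211.

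Dnaja1, an HSP40 that loads clients onto HSP70, had its strongest correlation between the adipose tissues. It was 10.84, 12.43, 10.89, 10.06 and 10.20 in WAT of the L rats and 10.91, 10.27, 10.37 and 9.96 in WAT of the H rats. The BAT values were 10.35, 11.74, 10.54, 10.13 and 10.25, then 11.55, 10.77, 11.09 and 10.57. The order of the rats within each diet was the same in both, with r = 0.963 (exact p = 0.000347, rho 0.95 with exact p = 0.000347, limma adjusted p = 0.00664, 0.872 without the 2 farthest rats), and the call was kept in 8 of 9 fits without 1 rat. Dnaja1 reached 0.82 between liver and WAT and 0.78 between liver and BAT, with limma adjusted p of 0.0572 and 0.253. At the other end of the list, Hspb1 had an r of 0.0923 and 0.0446 with the liver, and Bag3, a co-chaperone, 0.189 between liver and WAT.

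The level of the heat shock list depended on rat 2: without it the medians were 0.475, 0.645 and 0.345. With the first principal component removed they were 0.249, 0.5 and 0.536. The difference of the 3′ and 5′ GAPDH control probe sets, a sign of RNA integrity, correlated between WAT and BAT with r = 0.817 but at 0.0388 between liver and WAT and -0.0742 between liver and BAT. In BAT the list's mean residual correlated with it at -0.463 and in WAT at -0.0033. With this difference taken out of both tissues the medians of the list were 0.794, 0.811 and 0.776.

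**Figure D3:**
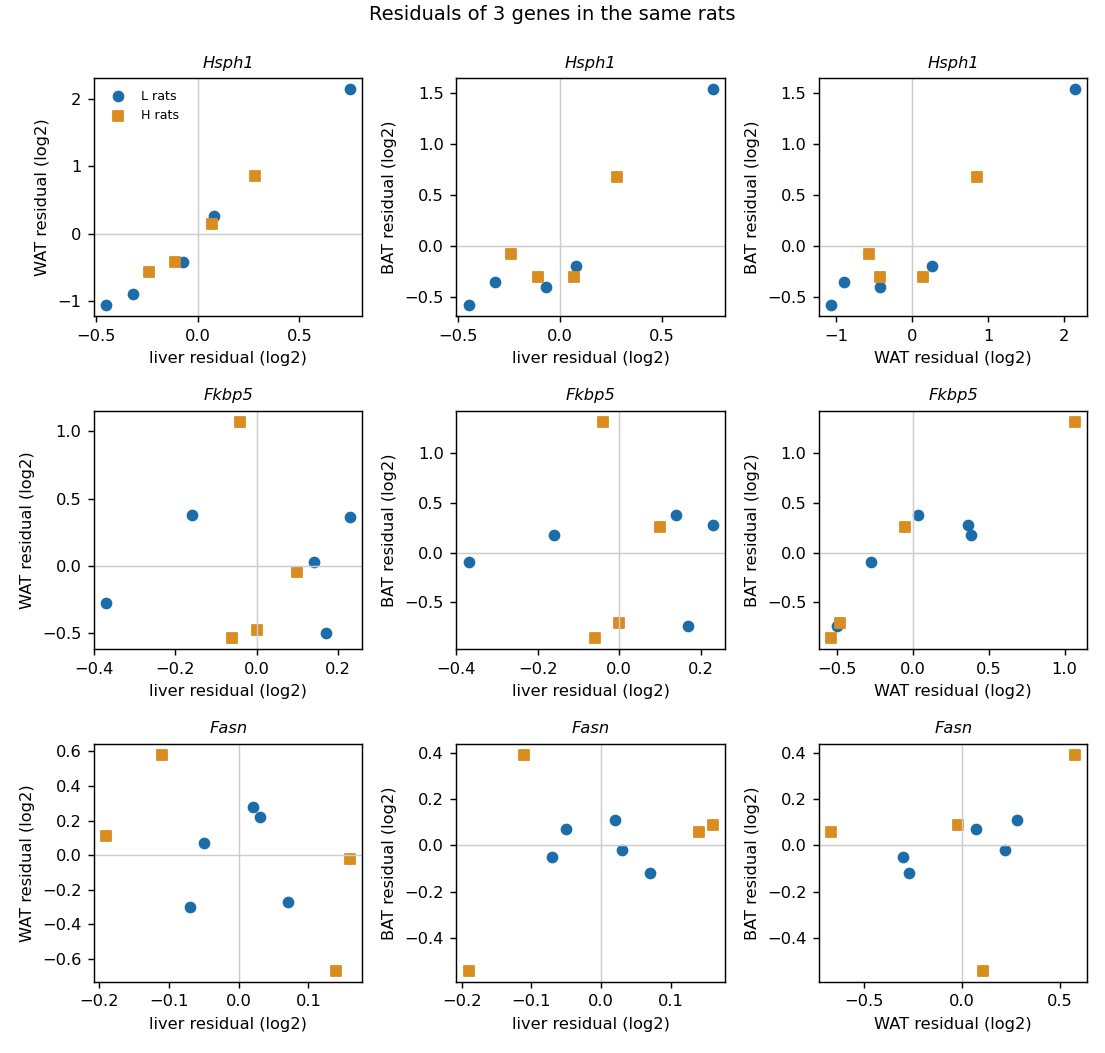
Residuals (log2 value minus the mean of the diet group, x and y axes) of Hsph1, Fkbp5 and Fasn in 9 rats, L rats as circles and H rats as squares, for liver and WAT, liver and BAT and WAT and BAT. The r of Hsph1 was 0.99, 0.91 and 0.93, of which the latter pair fell to 0.633 and 0.485 without the 2 farthest rats. Fkbp5 had 0.03, 0.02 and 0.94, and Fasn -0.50, 0.35 and 0.28.

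The chaperones of the ER, which fold secreted and membrane proteins, were also positively correlated. An r above 0 was held by 10 of 10 genes between liver and WAT (median 0.747), by 15 of 16 between liver and BAT (0.698) and by 9 of 9 between WAT and BAT (0.386). Only 1 gene passed the test, Hyou1 between WAT and BAT. The shares that passed over all probe sets were 4.55%, 0.379% and 3.51%, those above 0 were 67.85%, 58.76% and 66.89%, and whether the list differed between the pairs was not tested. The promoters of Hspa5 and Hsp90b1 are printed with matches to the ER stress element (CCAAT and CCACG with 9 bases between them) in capitals, the element bound by ATF6 together with NF-Y.
Hspa5, chr3:38452816-38453015 (plus strand): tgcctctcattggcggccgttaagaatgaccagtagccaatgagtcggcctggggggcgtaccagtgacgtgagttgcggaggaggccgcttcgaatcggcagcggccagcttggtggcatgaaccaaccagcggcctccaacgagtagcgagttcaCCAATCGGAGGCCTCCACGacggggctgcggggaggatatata
Hsp90b1, chr7:23012294-23012493 (minus strand): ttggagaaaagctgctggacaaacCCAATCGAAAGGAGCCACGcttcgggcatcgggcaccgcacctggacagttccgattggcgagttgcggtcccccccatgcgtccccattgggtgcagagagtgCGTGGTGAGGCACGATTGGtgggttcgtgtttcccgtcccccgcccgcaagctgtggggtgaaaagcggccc
The element occurred in the 250 bases before the start of 7 of 14 ER chaperone genes (50%) and of 0.0765% of all promoters, in 21 promoters in all. Hyou1, the gene that passed, had no match, and the matches were not compared with the correlations.

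Hyou1, a large HSP70-related chaperone of the ER, was 6.06, 6.91, 5.68, 5.84 and 6.74 in the livers of the L rats and 6.74, 6.20, 6.30 and 6.35 in those of the H rats. WAT of these rats read 8.38, 8.78, 8.14, 8.05 and 8.89, then 8.42, 7.96, 7.95 and 8.52. In BAT it was 7.42, 7.47, 7.06, 6.71 and 8.06, then 7.63, 6.79, 6.84 and 7.59. Rats 2 and 5 were the highest of the L rats in all 3 tissues, and rats 12 and 16 the highest of the H rats. WAT and BAT correlated with r = 0.937 (exact p = 0.00347, rho 0.867 with exact p = 0.00278, limma adjusted p = 0.0156, 0.973 without the 2 farthest rats). Liver and WAT reached r = 0.860 (exact p = 0.0153) with a limma adjusted p of 0.0564, and liver and BAT 0.72 with 0.384. Hspa5, the main HSP70 of the ER, had r = 0.662 between liver and WAT, 0.897 between liver and BAT and 0.421 between WAT and BAT, and Hsp90b1, the HSP90 of the ER, 0.818, 0.826 and 0.602, none of which passed. The list's median between liver and WAT was 0.494 without rat 2.

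Genes of the major histocompatibility complex (MHC, called RT1 in the rat), which present peptides to T cells, were positively correlated in nearly every case. An r above 0 was held by 16 of 17 genes between liver and WAT (median 0.633), 19 of 20 between liver and BAT (0.613) and 15 of 15 between WAT and BAT (0.695), and 5, 2 and 5 passed. Beside these stand 4.55%, 0.379% and 3.51% of all probe sets called and 67.85%, 58.76% and 66.89% above 0. With the first principal component removed the medians of the list were 0.398, 0.475 and 0.465. Leaving out 1 rat at a time moved the medians between 0.465 and 0.754 over the 3 pairs. RT1 class I genes are near-identical copies, so that 1 probe set can read several of them, and a sequence difference between rats under the probes would read as a difference in level in every tissue. Both limits hold for each RT1 value below and were not tested.

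RT1-T24-3, a class I gene of the T24 group, had rats at high and at low values in each tissue. In the liver it was 6.58, 5.49, 5.38, 5.70 and 4.89 in the L rats and 6.65, 6.70, 7.09 and 5.27 in the H rats. Its WAT values were 10.14, 7.43, 6.94, 7.79 and 6.65, then 9.96, 10.31, 10.76 and 7.87. The BAT values were 7.61, 3.99, 4.31, 4.58 and 3.86, then 7.28, 7.65, 8.58 and 4.28. The same 4 rats, 1 of the L-group and 3 of the H-group, were the highest in each tissue. The r was 0.971 between liver and WAT, 0.966 between liver and BAT and 0.975 between WAT and BAT, with limma adjusted p of 0.000416, 0.00236 and 0.000503. The exact p were 0.000347, 0.00104 and 0.00208, rho was 1.0, 0.98 and 0.98, and without the 2 farthest rats r was 0.927, 0.771 and 0.747. Each of the 3 calls was kept in 9 of 9 fits without 1 rat.

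RT1-CE10, another class I gene, divided the rats differently. It was 9.30, 9.97, 10.12, 9.13 and 9.83 in the livers of the L rats and 9.35, 9.21, 10.11 and 9.73 in those of the H rats. The values in WAT were 10.64, 12.06, 12.20, 10.69 and 11.82, then 10.85, 10.72, 11.97 and 11.83. In BAT it was 10.11, 10.81, 10.91, 9.92 and 10.58, then 10.01, 9.89, 11.02 and 10.81. Rats 1, 4, 12 and 13 were the 4 lowest in all 3 tissues. The r was 0.971, 0.971 and 0.966, with exact p of 0.000694, 0.000347 and 0.000694, rho of 0.92, 0.93 and 0.87, and limma adjusted p of 0.000678, 0.0135 and 0.00698. Without the 2 farthest rats r was 0.959, 0.956 and 0.998. RT1-S3 was called between WAT and BAT, and RT1-CE12 and RT1-T24-4 in that pair and between liver and WAT.

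The class II genes and the antigen-processing genes were less uniform. Between WAT and BAT, RT1-Ba, RT1-Bb, RT1-Da and RT1-Db1, which form class II dimers, had r of 0.169, 0.462, 0.101 and 0.469, and Cd74, the class II invariant chain, 0.343. B2m, the light chain shared by all class I molecules, had 0.848 and the immunoproteasome subunits Psmb8 and Psmb9 0.440 and 0.779, none of which passed.

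Genes induced by interferon, which act against viruses, were positively correlated as well. An r above 0 was held by 18 of 20 genes between liver and WAT (median 0.688), 17 of 19 between liver and BAT (0.573) and 18 of 18 between WAT and BAT (0.66), and 3, 1 and 2 passed. Of all probe sets, 4.55%, 0.379% and 3.51% passed and 67.85%, 58.76% and 66.89% lay above 0. The promoters of Irf7 and Ifi27 are shown with matches to the interferon-stimulated response element (GAAA and GAAA with 2 bases between them), on either strand, in capitals.
Irf7, chr1:205800024-205800223 (minus strand): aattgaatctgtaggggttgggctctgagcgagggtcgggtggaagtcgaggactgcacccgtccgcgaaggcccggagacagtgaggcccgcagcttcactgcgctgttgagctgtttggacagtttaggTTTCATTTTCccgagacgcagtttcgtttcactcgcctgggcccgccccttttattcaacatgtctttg
Ifi27, chr6:128355112-128355311 (plus strand): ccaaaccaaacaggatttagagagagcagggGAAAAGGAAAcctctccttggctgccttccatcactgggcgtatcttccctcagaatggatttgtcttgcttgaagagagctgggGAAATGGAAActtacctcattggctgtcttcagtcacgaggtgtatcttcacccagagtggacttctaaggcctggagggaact
The element was present for 10 of 15 interferon genes with a promoter in the table (66.7%) and for 3.29% of all promoters.

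Irf7, the transcription factor that amplifies the interferon response, was 7.55, 7.83, 7.42, 7.69 and 7.39 in the livers of the L rats and 7.92, 7.53, 8.99 and 7.11 in those of the H rats. In WAT it was 9.79, 10.40, 9.19, 10.09 and 9.50, then 9.46, 9.24, 10.56 and 10.03. The BAT values were 7.60, 8.10, 7.48, 8.45 and 7.67, then 7.83, 7.48, 9.10 and 7.22. Rat 15 was the highest of the H rats in each tissue, and rats 2 and 4 were the highest of the L rats. Liver and BAT correlated with r = 0.932 (exact p = 0.00417, rho 0.93, limma adjusted p = 0.0323), which was 0.756 without the 2 farthest rats, and the call was kept in 4 of 9 fits without 1 rat. The other pairs had an r of 0.59 and 0.70 with limma adjusted p of 0.342 and 0.198.

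Ifi27, an interferon-induced protein of the mitochondria, spanned little in absolute terms. It was 12.62, 12.71, 12.64, 12.60 and 12.30 in the livers of the L rats and 12.70, 12.64, 12.82 and 12.33 in those of the H rats. The WAT values were 12.61, 12.87, 12.49, 12.59 and 11.96, then 12.64, 12.62, 12.90 and 12.34. In BAT it was 12.73, 13.14, 12.85, 12.97 and 12.28, then 13.25, 13.12, 13.41 and 12.89. In each tissue rats 5 and 16 were the lowest of their diets and rats 2 and 15 the highest. The r was 0.917 between liver and WAT (exact p = 0.00313, rho 0.783 with exact p = 0.0132, limma adjusted p = 0.0329, 0.837 without the 2 farthest rats) and 0.956 between WAT and BAT (exact p = 0.00243, rho 0.817 with exact p = 0.0236, limma adjusted p = 0.0385, 0.848 without them). Both are near the threshold and were kept in 2 and 1 of 9 fits without 1 rat. Between liver and BAT r was 0.902 with a limma adjusted p of 0.174.

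The interferon list rested in part on rat 15: without it the medians were 0.382, 0.449 and 0.579. With the first principal component removed they were 0.225, 0.461 and 0.499. In BAT the list's mean residual correlated with the GAPDH difference at -0.738, and with that difference taken out of both tissues the medians were 0.666, 0.371 and 0.724. Macrophage and neutrophil markers had medians of 0.554, 0.551 and 0.186, with 0 genes called by limma and 3 in each pair at an unadjusted p under 0.05. The part of RNA integrity and of these cells in the interferon and MHC values was not tested.

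Mx2, a GTPase induced by interferon, formed 2 separate levels by 1 of its probe sets. In the liver 4 rats read 5.36 to 6.06 and the other 5 read 2.75 to 3.07. In WAT the same 4 read 8.11 to 9.98 against 5.28 to 5.47, and in BAT 3.26 to 4.03 against 2.29 to 2.31, where 2.29 is the constant low value of Cps1. The 4 were rats 1, 4, 12 and 13, 2 from each diet, and they were the same 4 rats that were lowest for RT1-CE10. Because the rats fall into 2 sets, no r over all 9 is given, and neither set has the 6 rats needed for one of its own. The other probe set of Mx2, the brightest and the one the interferon list reads, did not form such levels in all 3 tissues. It had r = 0.844 between liver and WAT (limma adjusted p = 0.0427), 0.898 between liver and BAT (0.0954, not called, and 0.517 without the 2 farthest rats) and 0.770 between WAT and BAT (0.141, not called). A probe set without a gene symbol split the same rats, at 7.39 to 7.94 against 4.07 to 4.75 in the liver, 9.63 to 10.07 against 5.65 to 5.94 in WAT and 7.05 to 7.45 against 2.92 to 3.01 in BAT.

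**Figure D4:**
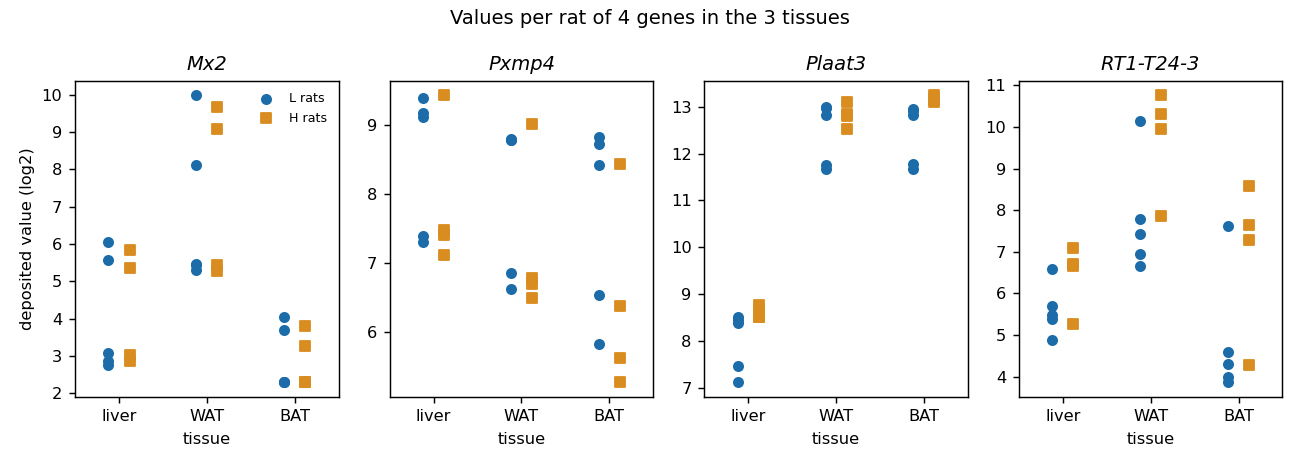
Log2 values per rat (y axis) of Mx2 (1 of its probe sets), Pxmp4, Plaat3 and RT1-T24-3 in the 3 tissues (x axis), L rats as circles and H rats as squares. Mx2, Pxmp4 and Plaat3 show a gap in every tissue, with the same rats above it, and both diets are found above it for each of the 3.

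Such levels were looked for as a gap over 50% of the range in all 3 tissues with the same rats above it. They were found for 13 of 2393 probe sets (0.543%), 5 with at least 2 rats on each side and 8 with 1 rat apart. Of the 26 probe sets called in every pair 9 were among them, which follows from how both were chosen. Pxmp4, a peroxisomal membrane protein, was high in rats 1, 2, 5 and 12: 9.12 to 9.43 against 7.11 to 7.48 in the liver, 8.78 to 9.02 against 6.49 to 6.86 in WAT and 8.42 to 8.83 against 5.27 to 6.53 in BAT. Its second probe set was also called in every pair. Plaat3, a phospholipase and acyltransferase abundant in fat, was low in rats 1 and 2 alone: 7.12 to 7.48 against 8.39 to 8.78 in the liver, 11.66 to 11.75 against 12.53 to 13.10 in WAT and 11.68 to 11.77 against 12.82 to 13.24 in BAT. A probe set shared by Senp5 and its copies put 6 rats above the gap. Phkg2, the catalytic subunit of phosphorylase kinase in liver, was low in rat 15 alone, at 5.72 against 6.48 to 6.78 in the liver, 7.11 against 7.90 to 8.05 in WAT and 3.64 against 4.96 to 5.51 in BAT. Within the other 8 rats r was -0.0594, 0.582 and 0.262. Mga, a partner of MAX, was low in rat 5 alone, at 5.04 against 5.90 to 6.58, 7.09 against 8.47 to 9.46 and 4.50 against 6.09 to 7.16.

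Nfkbia, the inhibitor of NF-kappa B, stood apart in rat 1, at 9.05 against 7.51 to 8.07 in the liver, 11.05 against 9.10 to 9.91 in WAT and 9.88 against 8.22 to 9.06 in BAT. For liver and WAT, where rat 1 lay beyond a gap, r was 0.70 within the other 8 rats. For liver and BAT r was 0.925 (exact p = 0.00937, rho 0.867 with exact p = 0.00694, limma adjusted p = 0.0415), and 0.668 without the 2 farthest rats. For WAT and BAT it was 0.946 (exact p = 0.00104, rho 0.917 with exact p = 0.00104, limma adjusted p = 0.00873), and 0.791 without them.

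Other genes called in all pairs did not meet this rule in all 3 tissues. Mrpl52, a protein of the mitochondrial ribosome, was 7.04, 7.51, 6.45, 7.46 and 6.93 in the livers of the L rats and 7.12, 7.62, 7.61 and 6.40 in those of the H rats. WAT of these rats read 8.49, 9.08, 7.58, 9.12 and 8.61, then 8.62, 9.30, 9.26 and 7.56, and in BAT 5.79, 6.28, 4.59, 6.35 and 5.51, then 5.79, 6.70, 6.43 and 3.6. Rats 3 and 16 were the lowest of their diets in each tissue, and in WAT they lay apart at 7.58 and 7.56 with the next rat at 8.49. The r was 0.988, 0.970 and 0.967, with exact p of 0.00243, 0.00104 and 0.00174, rho of 0.88, 0.93 and 0.95, limma adjusted p of 0.000289, 0.00236 and 0.00101, and r of 0.964, 0.970 and 0.935 without the 2 farthest rats. Each call was kept in 9 of 9 fits without 1 rat.

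Nom1, a nucleolar protein, was 8.03, 7.54, 7.64, 8.06 and 6.82 in the livers of the L rats and 6.69, 7.54, 6.98 and 7.54 in those of the H rats. Its WAT values were 9.32, 8.53, 8.68, 9.44 and 7.47, then 7.43, 8.79, 7.47 and 8.71, and in BAT 6.82, 6.09, 6.23, 6.82 and 5.19, then 5.46, 6.32, 5.64 and 5.77. Rats 1 and 4 were the highest and rat 5 the lowest of the L rats in all tissues. The r was 0.984, 0.929 and 0.914, with exact p of 0.000694, 0.00139 and 0.000694, rho of 0.95, 0.93 and 0.93, limma adjusted p of 0.000334, 0.0394 and 0.0183, and r of 0.988, 0.841 and 0.822 without the 2 farthest rats. The calls were kept in 9, 2 and 6 of 9 fits without 1 rat. Zeb2, a zinc finger repressor, Tgoln2, a protein of the trans-Golgi network, and Lmo4, a LIM-only cofactor, had r of 0.967, 0.943 and 0.909, of 0.916, 0.936 and 0.889, and of 0.9, 0.952 and 0.863. Without the 2 farthest rats these were 0.963, 0.884 and 0.757 for Zeb2, 0.838, 0.975 and 0.939 for Tgoln2, and 0.882, 0.939 and 0.958 for Lmo4.

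Some of the genes that covaried lay near another that did. Between liver and WAT 13 of 84 called genes (15.5%) had another called gene within 20 annotated genes, and 8.09% of the genes tested but not called did. Between WAT and BAT this was 13 of 67 (19.4%) and 6.67%, and between liver and BAT 0 of 21 and 1.91%. Without the RT1 genes, 9 of 79 and 8 of 62 remained. Such neighbours were Plaat3 and Stip1, the latter the co-chaperone that joins HSP70 and HSP90, Retsat, retinol saturase, and Tgoln2, and Lmo4 with Kyat3, a kynurenine aminotransferase. The shares are a description, and neither the linkage of alleles nor a shared regulator was tested.

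The list of glucocorticoid-responsive genes had a median r of 0.366 between liver and WAT (9 of 11 above 0), 0.299 between liver and BAT (9 of 12) and 0.566 between WAT and BAT (9 of 11), and 3, 0 and 2 genes passed. For all probe sets the medians were 0.234, 0.101 and 0.223, the shares above 0 were 67.85%, 58.76% and 66.89%, and the shares called were 4.55%, 0.379% and 3.51%. Without rat 1 the medians were 0.17, 0.152 and 0.126. The palindrome of the full glucocorticoid response element, GNACA and TGTNC with 3 bases between them, was in none of the 12 promoters of the list and in 0.364% of all, in these 250 bases.

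Fkbp5, a co-chaperone of the glucocorticoid receptor, was followed between the adipose tissues. It was 6.18, 6.09, 5.79, 5.58 and 6.12 in the livers of the L rats and 6.20, 6.35, 6.24 and 6.19 in those of the H rats. In WAT it was 9.20, 8.87, 9.22, 8.56 and 8.34, then 10.21, 9.08, 8.65 and 8.59, and in BAT 6.21, 6.31, 6.11, 5.83 and 5.19, then 7.40, 6.35, 5.38 and 5.23. Rat 12 was the highest and rat 5 the lowest in both adipose tissues. WAT and BAT had r = 0.939 (exact p = 0.00347, rho 0.883 with exact p = 0.00764, limma adjusted p = 0.00741, 0.833 without the 2 farthest rats), and the call was kept in 8 of 9 fits without 1 rat. The liver was at r = 0.03 with WAT and 0.02 with BAT. Whether these correlations differ from each other was not tested.

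Dusp1, a phosphatase that turns off MAP kinases, passed between liver and WAT. It was 11.41, 11.62, 11.04, 11.32 and 11.48 in the livers of the L rats and 11.12, 10.99, 11.03 and 11.23 in those of the H rats. For WAT they were 11.87, 12.08, 10.35, 10.93 and 11.65, then 11.34, 10.53, 11.04 and 11.73, and in BAT 9.64, 9.24, 9.09, 8.91 and 8.58, then 11.75, 9.59, 9.20 and 7.26. Rat 2 was the highest and rat 3 the lowest of the L rats in liver and WAT, but not in BAT. Liver and WAT had r = 0.936 (exact p = 0.000694, rho 0.967 with exact p = 0.000694, limma adjusted p = 0.00483, 0.896 without the 2 farthest rats), kept in 9 of 9 fits without 1 rat. BAT was at -0.14 with the liver and -0.10 with WAT.

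Tsc22d3, known as GILZ, a glucocorticoid-induced leucine zipper protein, was highest in rat 1. It was 10.13, 8.74, 9.02, 8.70 and 8.77 in the livers of the L rats and 9.27, 9.01, 8.88 and 9.54 in those of the H rats. The WAT values were 12.07, 11.24, 10.89, 10.24 and 10.55, then 11.64, 10.96, 11.11 and 11.48, and in BAT 10.37, 9.57, 9.20, 8.72 and 8.71, then 9.93, 9.27, 9.30 and 9.08. Rat 1 led all 9 in each tissue, and the other rats of both diets overlapped. WAT and BAT had r = 0.914 (exact p = 0.00417, rho 0.867 with exact p = 0.016, limma adjusted p = 0.0176, 0.740 without the 2 farthest rats). Liver and WAT had r = 0.850 (exact p = 0.0177, rho 0.7 with exact p = 0.0594, limma adjusted p = 0.0403), which fell to 0.538 without the 2 farthest rats and so rested on them.

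The circadian clock genes had their highest median between liver and WAT, and whether the pairs differ was not tested. The median r was 0.67 between liver and WAT (11 of 13 above 0), 0.202 between liver and BAT (9 of 15) and 0.287 between WAT and BAT (10 of 13), and 2, 0 and 1 passed, where 4.55%, 0.379% and 3.51% of all probe sets passed and 67.85%, 58.76% and 66.89% were above 0. Dbp, an output of the clock in the form of a PAR bZIP factor, was 6.39, 6.38, 8.36, 8.69 and 8.47 in the livers of the L rats and 8.51, 8.33, 9.05 and 9.13 in those of the H rats. WAT of these rats read 7.23, 7.0, 7.68, 8.86 and 8.95, then 8.67, 7.91, 9.34 and 9.26, and in BAT 7.87, 5.69, 5.81, 6.03 and 7.28, then 7.28, 6.45, 7.55 and 7.41. Rats 1 and 2 were the lowest of the L rats in liver and WAT, but rat 1 was the highest in BAT. Liver and WAT had r = 0.845 (exact p = 0.0264, rho 0.85 with exact p = 0.0233, limma adjusted p = 0.0384, 0.821 without the 2 farthest rats), kept in 2 of 9 fits without 1 rat. Dbp was at -0.11 between liver and BAT and at 0.27 between WAT and BAT.

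Per1, a repressor of the clock that glucocorticoids also induce, was 6.89, 6.52, 6.41, 6.52 and 6.36 in the livers of the L rats and 6.71, 6.11, 6.69 and 7.03 in those of the H rats. In WAT it was 9.27, 8.30, 8.20, 8.30 and 8.47, then 8.47, 8.01, 8.76 and 8.89. Rat 1 was the highest of the L rats and rat 16 the highest of the H rats in both. The r was 0.865 (exact p = 0.0122, rho 0.783 with exact p = 0.0295, limma adjusted p = 0.0415, 0.860 without the 2 farthest rats), and it passed in 0 of 9 fits without 1 rat. Per2 passed between WAT and BAT with r = 0.853 (exact p = 0.0132, rho 0.783 with exact p = 0.0285, limma adjusted p = 0.0458, 0.745 without the 2 farthest rats).

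Among stress-responsive genes outside these lists, Ddit4, also called REDD1, an inhibitor of mTORC1, was 5.83, 5.04, 5.24, 5.41 and 5.06 in the livers of the L rats and 4.89, 4.97, 5.35 and 5.23 in those of the H rats. The values in WAT were 10.65, 7.57, 9.12, 9.42 and 8.13, then 8.98, 8.91, 9.77 and 9.79, and in BAT 10.04, 7.57, 8.71, 7.89 and 7.28, then 8.70, 8.34, 9.31 and 8.68. Rat 1 was the highest of all in each tissue. The r was 0.946 between liver and WAT (exact p = 0.00139, rho 0.917 with exact p = 0.00486, limma adjusted p = 0.00206, 0.916 without the 2 farthest rats). WAT and BAT had 0.860 (exact p = 0.0198, rho 0.717 with exact p = 0.0854, limma adjusted p = 0.0356, 0.672 without them). The ATF4 list that holds Ddit4 had medians of 0.496, 0.209 and 0.14.

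Akr1b8, an aldo-keto reductase, was 4.17, 4.01, 3.45, 3.42 and 3.35 in the livers of the L rats and 3.99, 4.22, 3.12 and 3.94 in those of the H rats, and 9.35, 9.13, 6.65, 7.16 and 7.28, then 9.29, 10.33, 7.78 and 9.15 in WAT. The liver values were low, overlapping those of the adipocyte genes Adipoq (3.24 to 3.53) and Fabp4 (3.8 to 4.67) in the liver, so they may lie near background. In both tissues rats 1 and 2 were the highest of the L rats, rat 13 the highest of the H rats and rat 15 the lowest of them. The r was 0.943 (exact p = 0.00521, rho 0.917 with exact p = 0.00764, limma adjusted p = 0.0021, 0.978 without the 2 farthest rats). The list of NRF2 targets, which answer oxidants and to which Akr1b8 belongs, had medians of 0.116 and 0.0228 with the liver, and 0.662 over 6 genes between WAT and BAT.

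Gstt3, a glutathione transferase, spanned over 4 log2 units in WAT. It was 9.92, 7.89, 8.55, 9.17 and 7.39 in the livers of the L rats and 6.82, 8.99, 9.77 and 10.06 in those of the H rats. For WAT they were 11.04, 6.31, 9.77, 9.22 and 6.52, then 6.69, 9.76, 9.43 and 11.37, and in BAT 4.23, 2.37, 3.18, 3.49 and 2.72, then 2.29, 3.18, 3.18 and 3.49. Rats 2, 5 and 12 were the 3 lowest in every tissue. The lowest BAT value, 2.29, is the constant low value of Cps1 there, so the BAT values lie near the floor. The r was 0.904 between liver and WAT (exact p = 0.00347, rho 0.833 with exact p = 0.0142, limma adjusted p = 0.00843, 0.827 without the 2 farthest rats) and 0.942 between WAT and BAT (exact p = 0.00208, rho 0.879 with exact p = 0.00694, limma adjusted p = 0.00828, 0.882 without them). The list of drug-metabolizing enzymes that holds Gstt3 had medians of -0.123 and -0.0657 with the liver and of 0.472 between WAT and BAT.

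For the genes of fatty acid and triacylglycerol synthesis, with the diet means out, the median r was 0.0551 between liver and WAT (8 of 14 above 0), 0.0696 between liver and BAT (8 of 15) and 0.133 between WAT and BAT (9 of 14), and by limma 0 genes passed, with 2, 1 and 0 at an unadjusted p under 0.05, where the medians over all probe sets were 0.234, 0.101 and 0.223. Since 4.55%, 0.379% and 3.51% of all probe sets passed, a count of 0 in a list of this size is near the background. Fasn, fatty acid synthase, was 6.67, 6.75, 6.80, 6.77 and 6.69 in the livers of the L rats and 6.79, 7.04, 7.05 and 6.70 in those of the H rats. The WAT values were 11.81, 12.39, 11.85, 12.33 and 12.18, then 11.55, 10.30, 10.95 and 11.07, and in BAT 15.14, 15.30, 15.07, 15.17 and 15.26, then 15.13, 14.80, 14.83 and 14.20. The diets did not overlap in WAT, yet within them the rats took different orders in each tissue, and r was -0.50, 0.35 and 0.28 with limma adjusted p of 0.484, 0.887 and 0.821. In the liver Fasn spanned only 0.39, with a residual standard deviation of 0.12, so little variation was left there to correlate.

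Scd, the stearoyl-CoA desaturase, was 13.40 to 14.91 in WAT of the L rats and 7.25 to 10.58 in WAT of the H rats. In the liver it was 10.63 to 11.80 and 6.57 to 10.43, and in BAT 14.66 to 14.90 and 12.59 to 13.81. The 2 diets did not overlap in any tissue. The residuals correlated with r = 0.06, 0.53 and -0.07, none of which passed. With the diet means left in, a setting added after the data had been seen, the medians of the list were 0.431, 0.0951 and 0.562, while those of the heat shock list were 0.649, 0.786 and 0.709.

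**Figure D5:**
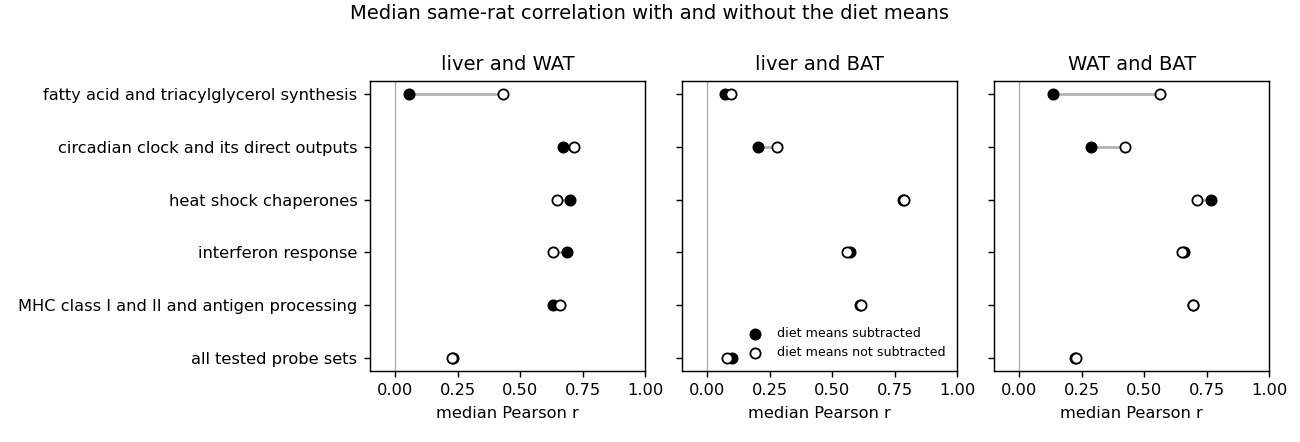
Median r (x axis) of 5 lists and of all tested probe sets, with the diet means subtracted (filled circles) and not subtracted (open circles), for each pair of tissues. Fatty acid synthesis moves from 0.0551 to 0.431 between liver and WAT and from 0.133 to 0.562 between WAT and BAT, whereas the heat shock, interferon and MHC lists move by less than 0.1.

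Fatty acid oxidation genes had medians of 0.121, 0.21 and 0.0378, with 0 genes called by limma and 0, 1 and 0 at an unadjusted p under 0.05. Pdk4, the kinase that turns off pyruvate dehydrogenase, had r = 0.892 between liver and BAT (limma adjusted p = 0.162) and 0.00 and 0.08 in the other pairs. Cholesterol synthesis genes had medians of -0.13 and -0.196 in the pairs with the liver and 0.753 between WAT and BAT, where 6 of 7 genes were above 0. In that last pair 5 had an unadjusted limma p under 0.05, 1 of them negative. The list's mean residual correlated with the GAPDH difference at -0.467 in WAT and -0.714 in BAT. With that difference taken out of both tissues the medians were -0.116, -0.39 and 0.5, and the part of RNA integrity was not tested. Lss, lanosterol synthase, passed between WAT and BAT at r = 0.860 (limma adjusted p = 0.0459), which was 0.627 without the 2 farthest rats. Sc5d, sterol C5-desaturase, passed between liver and WAT at r = 0.879 (limma adjusted p = 0.0326), which was 0.522 without them. These were 1 of 7 and 1 of 8 genes tested, beside 3.51% and 4.55% of all probe sets.

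Few genes moved in opposite directions. Acp5, the tartrate-resistant acid phosphatase of macrophages and osteoclasts, was 6.70, 7.27, 6.94, 6.71 and 6.41 in the livers of the L rats and 6.84, 7.01, 7.61 and 6.54 in those of the H rats, and 9.10, 8.12, 9.18, 9.00 and 9.63, then 9.59, 8.11, 8.14 and 10.36 in WAT. Rats 5 and 16 were the lowest of their diets in the liver and the highest in WAT. The r was -0.846 (exact p = 0.00799, rho -0.817 with exact p = 0.034, limma adjusted p = 0.0379, -0.754 without the 2 farthest rats), kept in 2 of 9 fits without 1 rat. Fmod, the matrix protein fibromodulin, had r = -0.837 in the same pair, which shrank to -0.325 without the 2 farthest rats (exact p = 0.0285, rho -0.803 with exact p = 0.0299).

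Sorbs2, an adaptor of the actin cytoskeleton, was 8.44, 8.39, 8.74, 9.10 and 8.93 in WAT of the L rats and 8.19, 8.74, 8.83 and 9.23 in WAT of the H rats, and 7.17, 7.21, 7.26, 6.57 and 6.89, then 6.98, 6.60, 6.35 and 5.56 in BAT. In the H rats the order in BAT was the reverse of that in WAT. The r was -0.901 (exact p = 0.00937, rho -0.85 with exact p = 0.0153, limma adjusted p = 0.0335, -0.828 without the 2 farthest rats), kept in 2 of 9 fits without 1 rat. Collagens and other matrix genes had 4 of 20 genes above 0 between WAT and BAT, with a median of -0.348, and smooth muscle markers 1 of 7, with a median of -0.52, but by limma 0 of them passed, and 1 and 0 had an unadjusted p under 0.05. Of all probe sets in this pair 66.89% were above 0, 3.51% passed as positive and 0.0351% as negative. With the first principal component removed these medians were -0.0856 and -0.0505. Between liver and WAT 12 of 18 matrix genes and 4 of 5 smooth muscle markers were above 0. Between liver and BAT these were 10 of 18 and 1 of 5.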

How the data were processed

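RNA of liver, WAT and BAT was hybridized to Affymetrix Rat Genome 230 2.0 arrays, 1 per rat and tissue. The authors deposited log2 values, made with RMA for liver, qFARMS for WAT and GCRMA for BAT, each tissue on its own, and no further normalization was applied. Control probe sets (57) were not tested for covariation, and those of GAPDH served only as a sign of RNA integrity. A single gene symbol was given for 20826 of the rest, several for 436 and none for 9780. Values of 1 rat in different tissues were paired by the rat number in the labels, which marks the same animal.

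Residuals from the diet means were regressed between tissues in R 4.3.3 with limma 3.58.1, and a probe set was called at a Benjamini-Hochberg adjusted p under 0.05 within its pair. The 3-tissue test was limma's moderated F of the 7 rat terms. Exact permutations, correlations and lists were computed in Python 3.11.15 (scipy 1.17.1, numpy 2.4.6, pandas 2.3.3). The model was tested on simulated data, in which 5 of 2808, 1 of 8780 and 4 of 2648 probe sets without covariation were called. Simulated probe sets were drawn independently of each other. In the measured data the first principal component held 19.7%, 32% and 40.3% of the residual variance in liver, WAT and BAT. The simulation therefore does not show how many false calls these data hold. Named genes were, per pair, up to 12 positive and 6 negative calls of smallest p, up to 15 called in all pairs, and up to 3 per list of largest r. Genes shown rat by rat and the promoters were picked from these results. The comparisons, members and lists were chosen with earlier results of these data known. Alternatives changed the range rule, scaling, variance, threshold, regression direction and the rats used. Promoters came from RefSeq (GRCr8). For arrays, their number limits the precision.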

Additional observations from a re-analysis of the deposited data

Results flagged for a closer look

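For the 28 genes given rat by rat, a rat was singled out within its diet group and tissue where its gap to the nearest other rat, divided by the range of the group, exceeded the 95% critical value of Dixon's test, which chance exceeds in about 1 in 20 groups. Rat 2 was the highest L rat in BAT for Hsph1 (ratio 0.816), Dnaja1 (0.746) and Acp5 (0.944). Rat 1 was the highest L rat for RT1-T24-3 in BAT (0.807), for Tsc22d3 in the liver (0.776), for Per1 in WAT (0.753) and BAT (0.854), and for Nfkbia in the liver (0.754) and WAT (0.903). Rat 5 was the lowest L rat for Ifi27 in the liver (0.743). Among the H rats, rat 12 was the highest for Pxmp4 in the liver (0.841) and WAT (0.886), rat 15 the lowest for Phkg2 in the liver (0.848) and WAT (0.839), and rat 16 the lowest for Pdk4 in the liver (0.942) and BAT (0.853).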

How the results depend on the processing

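In what follows the counts are of probe sets called by limma. Positive calls between liver and WAT (137), liver and BAT (34) and WAT and BAT (100) were 37, 19 and 31 with the first principal component removed, 64, 9 and 45 with 1 probe set per gene, and 58, 6 and 26 at an adjusted p under 0.01. Without moderation of the variance they were 98, 2 and 46, with the first tissue regressed on the second 172, 61 and 102, with each array centred on its median 137, 22 and 86, and with a range over 0.6 required 143, 57 and 104. With the rat as a replicate block, the F test of the pairing, 125, 32 and 116 were called, of which 97, 21 and 77 were among the main calls. In settings chosen after the data had been seen, 72, 11 and 43 were called with the GAPDH difference taken out of both tissues, which uses up 2 degrees of freedom, and 160, 41 and 124 with the diet means left in. Leaving out 1 rat gave 77 to 130, 11 to 41 and 47 to 96. For liver and WAT the count was 77 without L rat 1 and 81 without L rat 5. For liver and BAT it was 16, 14 and 11 without L rats 2, 3 and 5 and 22, 15 and 11 without H rats 12, 13 and 15. For WAT and BAT it was 61, 47, 59, 59 and 47 without L rats 1 to 5 and 55 and 63 without H rats 13 and 15. The 2 negative calls of liver and WAT became 4 with the regression turned or the diet means left in, 1 without moderation or with 1 probe set per gene, 0 at 0.01 or without the first component, and 0 to 3 without 1 rat. The 0 of liver and BAT became 1 without L rat 2 and without L rat 4. The 1 of WAT and BAT became 4 with the regression turned, 0 without moderation, at 0.01, without the first component, with the diet means left in or with the GAPDH difference out, and 0 to 1 without 1 rat (0 without L rats 2, 4 and 5 and H rats 12, 13 and 15). The 310 probe sets with a shared rat effect became 167 at 0.01, 172 with 1 probe set per gene and 241 to 322 without 1 rat. The remaining alternatives changed these counts by less than 1.5 times, and no single gene's call reversed in sign. Of the 89 single correlations called, 77 passed with Spearman's rho by the exact test, 81 with centred arrays and 28 with the first component removed. The cause of these changes was not tested, except that fewer rats or probe sets enter some settings by construction. WAT limits the probe sets tested most, since 25734 are constant there. It was also the only tissue summarized with qFARMS, and the cause of the constant values was not tested.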

Other observations

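Immediate early genes, transcription factors induced within minutes of a stimulus, had medians of 0.237, 0.255 and 0.23 in liver and WAT, liver and BAT and WAT and BAT. Between liver and WAT 3 of 16 passed: Atf3 (r = 0.879, limma adjusted p = 0.02), Myc (0.856, 0.0374) and Nr4a1 (0.867, 0.0278), where 4.55% of all probe sets passed. Without the 2 rats farthest from the median in the liver their r was 0.603, 0.307 and 0.654, and the calls were kept in 8, 3 and 4 of 9 fits without 1 rat. Hmox1, heme oxygenase, was called between liver and BAT with r = 0.891 (exact p = 0.00729, limma adjusted p = 0.0451), which was 0.587 without the 2 rats farthest from the median in the liver. Endothelial markers had medians of 0.00616, 0.207 and 0.461, and white and general adipocyte markers of -0.19, 0.106 and 0.049. Of the genes with several probe sets tested and at least 1 called, all probe sets had a positive r for 19 of 19 between liver and WAT, 9 of 11 between liver and BAT and 16 of 18 between WAT and BAT. The largest negative r between liver and BAT, that of Atl2, an atlastin that shapes the ER, was -0.971 (exact p = 0.000347), with a limma adjusted p of 0.105, and -0.949 without the 2 farthest rats.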
